A study of Homo sapiens with 12 samples.

Results

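Glycolysis and hypoxia-response genes were followed in HEK293E cells, a line of human embryonic kidney origin. The set was a list of 33 symbols chosen by known function among the 17520 genes of the expression table: 2 glucose transporters, 9 enzymes of the preparatory phase of glycolysis, 8 enzymes of its payoff phase and of lactate formation, 3 regulators of flux, 3 genes of oxygen sensing and 8 other targets of the transcription factor HIF1. All 33 had a row, and all 33 passed the filter on low values, which asked 10 units or more of 3 libraries or more. Cells of the Torin1 group were starved of serum overnight and received 250 nM Torin1, an ATP-competitive inhibitor of the kinase mTOR, ahead of 200 nM insulin for 30 h. Their controls had the same starvation and the same insulin without Torin1, so no group was free of insulin. Each condition had 3 input libraries of poly(A)-selected mRNA and 3 libraries of miCLIP, an assay in which an antibody to the base N6-methyladenosine (m6A), fixed to RNA by ultraviolet light, leaves base changes in the reads near the modified adenosine. The labels call the replicates biological without saying whether they were separate cultures, so p-values measure only how far these samples spread, and that spread may be technical. A single line was studied, and it stands for no tissue.

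Glycolysis splits glucose into pyruvate, first spending ATP in a preparatory phase and then returning it in a payoff phase, and lactate dehydrogenase turns pyruvate into lactate. HIF1 is a pair of proteins, and its alpha subunit, encoded by HIF1A, is hydroxylated and destroyed when oxygen is plentiful. When the subunit persists, HIF1 binds short elements with the core ACGTG or GCGTG and raises transcription of glucose transporters, glycolytic enzymes and angiogenic factors. mTOR complex 1 is known to raise translation of HIF1A in many cultured cells.

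The expression values were normalized between libraries and rounded by the authors, and are given here as normalized units. Their totals were 11418114 to 11438881 in the Torin1 libraries and 12424643 to 12528454 in the insulin libraries. In 5 of the 6 libraries the low values lay on a grid that put the depth at 7.32 to 11.8 M reads. In Torin1 replicate 1 a read was worth less than 1 unit and its depth was not resolved. The line's identity was looked at through its markers: VIM averaged 7922 units with Torin1 and 2915 with insulin alone, and KRT8 417 and 208, while NEFM averaged 87.3 with Torin1 and 183 with insulin alone, and PAX2 was low, at 9.33 and 8. The leukocyte gene PTPRC and the liver genes ALB, APOA1 and AFP were at 8 units or less on average in either group. Of 16 markers of other cell types, 4 passed the filter. Of those, COL1A1 rose with Torin1. CD14 and HBA1 passed through the insulin libraries only and COL3A1 through the Torin1 libraries only, so no direction is read from them. CD14 averaged 4 units with Torin1 and 88.7 with insulin alone and COL1A1 497 and 214, and their part in the results was not tested.

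With Torin1, 21 of the 33 genes fell and 6 rose (limma, Benjamini-Hochberg adjusted p below 0.05). Most of the transcriptome passed the same test: 42.5% of the 13842 tested genes were called lower and 43.4% higher. A change beyond 1.5-fold was called for 13 members downward and 4 upward, against a background of 22.5% lower and 25% higher. The median log2 fold change was -0.36 over the members and 0.02 over all tested genes. The 3 Torin1 libraries lay wholly beyond the 3 insulin libraries for 27 of 33 members, beside 86.3% of all tested genes. Being bulk libraries, they cannot tell fewer cells expressing a gene from less of its RNA per cell. Scaling the libraries to equal totals moved the median of all genes by 0.12 on the log2 scale, and ENO1, PFKFB3 and EGLN3 then changed sign.

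**Figure D1:**
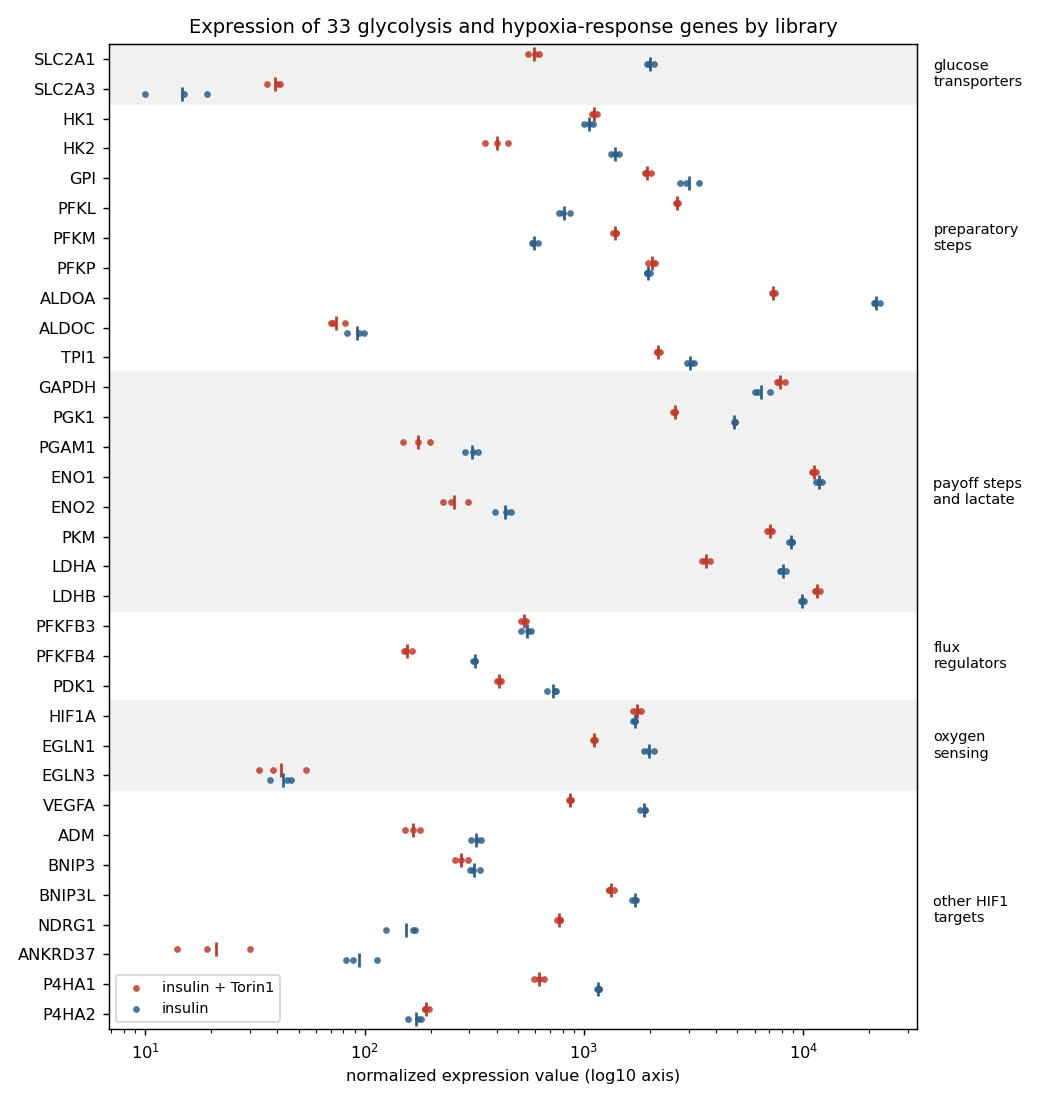
Normalized expression value of each of the 33 genes in each of 3 insulin+Torin1 and 3 insulin libraries (log10 axis), 1 row per gene and 1 point per library, ordered by role. Points of 1 group lie close together, and for HK2, PFKL, ALDOA and NDRG1 the groups lie far apart, while for HIF1A and PFKP they overlap. Values are not corrected for transcript length, so levels of different genes cannot be compared.

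The promoters of these genes can be read for the core of the HIF1 element. Promoter windows of 250 bases before to 50 bases after an annotated start came from RefSeq (GRCh38.p14), and 29 of the 33 members had at least 1 window. BNIP3L, NDRG1, SLC2A3 and VEGFA had no entry. Both strands were searched for the cores ACGTG and GCGTG. They were also searched for CACGTG, the E-box that MYC and its relatives bind. This motif reads the same on either strand, so each match of it contains a match of the first core on both. The windows printed are those of the 5 members with the lowest log2 fold changes among those with an entry and called lower beyond 1.5-fold, ANKRD37, HK2, SLC2A1, ALDOA and LDHA, and that of the member with the highest, PFKL, so that the letters can be read beside the changes that follow. Where a gene had several windows, the one with the most matches is shown, which holds for HK2 (2 windows), ALDOA (3 windows) and LDHA (2 windows). Each runs 5′ to 3′ on the gene's strand, with capitals over matches of either strand, where CACGT and CACGC are the cores read from the other strand. They lie at chr4:185396591-185396890 (plus strand), chr2:74834920-74835219 (plus strand), chr1:42958819-42959118 (minus strand), chr16:30064247-30064546 (plus strand), chr11:18394313-18394612 (plus strand) and chr21:44299803-44300102 (plus strand).
ANKRD37: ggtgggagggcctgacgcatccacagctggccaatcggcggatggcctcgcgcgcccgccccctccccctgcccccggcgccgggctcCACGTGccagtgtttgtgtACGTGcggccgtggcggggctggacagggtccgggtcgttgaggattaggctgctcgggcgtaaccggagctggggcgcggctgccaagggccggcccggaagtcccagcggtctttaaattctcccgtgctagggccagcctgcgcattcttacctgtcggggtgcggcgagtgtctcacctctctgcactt
HK2: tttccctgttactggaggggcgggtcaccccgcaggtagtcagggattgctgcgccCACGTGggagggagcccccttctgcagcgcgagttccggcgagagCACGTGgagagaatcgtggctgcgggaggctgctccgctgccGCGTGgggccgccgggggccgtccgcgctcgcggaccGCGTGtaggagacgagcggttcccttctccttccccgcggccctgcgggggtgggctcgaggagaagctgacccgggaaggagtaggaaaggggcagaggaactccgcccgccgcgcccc
SLC2A1: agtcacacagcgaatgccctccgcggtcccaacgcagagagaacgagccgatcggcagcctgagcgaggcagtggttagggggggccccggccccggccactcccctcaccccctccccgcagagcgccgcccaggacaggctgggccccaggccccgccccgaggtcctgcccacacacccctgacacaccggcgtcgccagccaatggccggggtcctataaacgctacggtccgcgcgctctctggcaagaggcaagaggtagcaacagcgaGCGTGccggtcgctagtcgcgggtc
ALDOA: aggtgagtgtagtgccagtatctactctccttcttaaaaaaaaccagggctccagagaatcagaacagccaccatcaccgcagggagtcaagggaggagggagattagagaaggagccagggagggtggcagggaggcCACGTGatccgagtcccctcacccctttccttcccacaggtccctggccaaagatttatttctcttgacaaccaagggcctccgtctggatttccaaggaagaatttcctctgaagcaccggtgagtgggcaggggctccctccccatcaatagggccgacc
LDHA: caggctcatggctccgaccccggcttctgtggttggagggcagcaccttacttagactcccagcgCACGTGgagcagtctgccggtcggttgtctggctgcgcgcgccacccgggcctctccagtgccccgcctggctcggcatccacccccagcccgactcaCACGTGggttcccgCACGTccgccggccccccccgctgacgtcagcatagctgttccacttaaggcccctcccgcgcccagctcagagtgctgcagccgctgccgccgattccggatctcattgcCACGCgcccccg
PFKL: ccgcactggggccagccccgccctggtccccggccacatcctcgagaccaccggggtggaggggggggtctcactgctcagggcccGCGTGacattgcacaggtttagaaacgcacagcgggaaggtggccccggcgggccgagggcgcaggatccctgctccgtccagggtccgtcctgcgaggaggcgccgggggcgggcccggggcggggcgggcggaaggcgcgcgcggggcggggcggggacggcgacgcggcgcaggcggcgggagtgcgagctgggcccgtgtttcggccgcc

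In these windows CACGTG began at -185 and -87 from the start of LDHA, at -194 and -149 from that of HK2, at -112 from that of ALDOA and at -162 from that of ANKRD37. HK2 also held GCGTG at -107 and -70. SLC2A1 held GCGTG alone, after its start, and PFKL held GCGTG alone at -164. Over all members with an entry, 17 of 29 genes (58.6%) had ACGTG in at least 1 window, beside 24.9% of 27305 genes. For CACGTG it was 8 of 29 members (27.6%) and 8.77% of all genes. For GCGTG it was 17 of 29 members (58.6%) and 40.6% of all genes. Window number was not matched: the 29 members had 52 windows, and the 27305 genes had 35116. Per window, ACGTG was in 40.4% for members and 21.4% for all genes, and CACGTG in 15.4% and 7.26%. GCGTG was in 38.5% of member windows and 36.5% of all windows, nearly the same share. By call beyond 1.5-fold, ACGTG was in 8 of 12 members called lower (66.7%), 1 of 2 called higher and 8 of 15 not called (53.3%). Counted by gene, GCGTG went the other way, in 6 of 12 called lower, 1 of 2 called higher and 10 of 15 not called. Per window it did not. GCGTG was in 8 of 17 windows of members called lower (47.1%) and 11 of 27 of those not called (40.7%). Members called higher had it in 1 of 8 windows. For ACGTG these were 11 of 17 windows (64.7%), 8 of 27 (29.6%) and 2 of 8. At least 1 of these 2 cores was in 11 of 12 members called lower, 2 of 2 called higher and 13 of 15 not called. CACGTG was in 4 of 12 called lower, 0 of 2 called higher and 4 of 15 not called (26.7%), and the members not called were ALDOC, BNIP3, GAPDH and PFKFB3. Many members are HIF1 targets by the choice of the list, base composition was not matched, and a match is a run of letters and not a known binding site.

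Both glucose transporters changed, in opposite directions. SLC2A1 (chr1:42925353-42958868, minus strand, hg38), which encodes GLUT1, the transporter of basal glucose uptake, had 554, 626 and 598 units with Torin1, against 2086, 1983 and 1934 with insulin alone. All 3 Torin1 libraries lay far under the lowest insulin library. Its log2 fold change was -1.75 ± 0.049 (SE), with an adjusted p of 1.75e-19 (limma). SLC2A3 (chr12:7919230-7936187), which encodes the high-affinity transporter GLUT3, had 36, 41 and 40 units with Torin1, against 10, 15 and 19 with insulin alone. The groups did not overlap, and the values were low. The insulin values stood for about 6, 11 and 18 reads, and the values of Torin1 replicates 2 and 3 for about 40 and 29. Its log2 fold change was 1.39 ± 0.26 (SE; adjusted p = 3.49e-05), on a log2(value + 1) scale that understates changes of low genes. SLC2A14, a near-identical copy of SLC2A3, averaged 2.33 units with Torin1 and 5.67 with insulin alone, and how reads were split between the pair is not given in the sources used here.

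In the preparatory phase 5 of 9 genes fell and 2 rose, beside 42.5% and 43.4% of all tested genes. The isoenzymes of a step did not move together. HK2 (chr2:74834127-74893359, plus strand), the inducible hexokinase that traps glucose as its phosphate, had 402, 352 and 448 units with Torin1, against 1446, 1387 and 1334 with insulin alone. The highest Torin1 library was far under the lowest insulin library, and the log2 fold change was -1.80 ± 0.066 (SE; limma adjusted p = 2.40e-17). HK1, the constitutive hexokinase, had 1108, 1090 and 1144 units with Torin1 and 1095, 1002 and 1056 with insulin alone. These ranges overlapped and the difference of 0.08 was not called (adjusted p = 0.0895, and 0.0282 without insulin replicate 1). It was called higher with scaling to equal totals (0.21) and with quantile normalization (0.26).

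Among the subunits of phosphofructokinase, the committed and most regulated step of glycolysis, the liver-type and muscle-type genes rose. PFKL (chr21:44300053-44327373, plus strand) had 2660, 2630 and 2676 units with Torin1, against 773, 798 and 865 with insulin alone. PFKM (chr12:48105353-48146404, plus strand) had 1406, 1349 and 1403 with Torin1, against 584, 578 and 620 with insulin alone. Replicates of a group lay within 100 units of each other for both genes, and the groups were widely separated. The log2 fold change of PFKL was 1.71 ± 0.044 (SE; limma adjusted p = 3.04e-20), and the mean of PFKM with Torin1 was 2.33 times that with insulin alone (adjusted p = 6.95e-17). PFKP, the platelet-type subunit, averaged 2051 ± 76.8 units with Torin1 and 1958 ± 29.4 with insulin alone (SD, n = 3 each), with overlapping values and no call (adjusted p = 0.108, and 0.0436 without Torin1 replicate 2). It was called higher with scaling to equal totals (0.19, adjusted p = 6.21e-05) and with quantile normalization (0.36, adjusted p = 1.05e-08). The body of PFKM overlaps that of SENP1, and whether reads were counted by strand is not given in the sources used here.

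The remaining genes of the preparatory phase were called lower. ALDOA (chr16:30064279-30070420, plus strand), the main aldolase outside liver and brain, had 7189, 7265 and 7446 units with Torin1, against 22459, 21158 and 21001 with insulin alone. No Torin1 library came near the insulin range, and the log2 fold change was -1.56 ± 0.030 (SE; limma adjusted p = 3.16e-22). GPI, which converts glucose phosphate to fructose phosphate, averaged 1947 ± 67.5 units with Torin1 and 3000.3 ± 298 with insulin alone (SD, n = 3 each; log2 fold change -0.62). TPI1, which interconverts the triose phosphates, averaged 2173 ± 46.2 with Torin1 and 3057 ± 118 with insulin alone (log2 fold change -0.49). GPI and TPI1 were called lower (adjusted p = 6.21e-11 and 1.49e-11) but not beyond 1.5-fold. ALDOC, the brain-type aldolase, had 70, 72 and 81 units with Torin1 and 94, 99 and 83 with insulin alone. Its 2 nearest libraries were 2 units apart, and the adjusted p of 0.0489 lay between 8.57e-05 and 0.237 over the alternatives tried. The call was lost without insulin replicate 1 (adjusted p = 0.0811) or 2 (0.129) or Torin1 replicate 1 (0.157) or 2 (0.114).

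In the payoff phase 6 of 8 genes fell and 2 rose, beside 42.5% and 43.4% of all tested genes. PGK1 (chrX:78104248-78129295, plus strand), the kinase that yields the first ATP of this phase, had 2606, 2603 and 2556 units with Torin1, against 4862, 4819 and 4858 with insulin alone (log2 fold change -0.90). LDHA (chr11:18394563-18408425, plus strand), the lactate dehydrogenase subunit that favours lactate formation, had 3740, 3455 and 3580 units with Torin1, against 7852, 7919 and 8366 with insulin alone. PGAM1, the mutase of this phase, had 150, 199 and 175 units with Torin1, against 329, 288 and 312 with insulin alone. In these 3 genes every Torin1 library was below every insulin library, and they were the payoff genes called lower beyond 1.5-fold. For LDHA the log2 fold change was -1.16 ± 0.035 (SE; limma adjusted p = 5.09e-19), and for PGAM1 it was -0.83 (adjusted p = 5.04e-08). The call beyond 1.5-fold of PGAM1 was lost without insulin replicate 1 (-0.79) or 3 (-0.82) or Torin1 replicate 1 (-0.73).

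The other payoff genes had smaller changes. LDHB (chr12:21635342-21657842, minus strand), the subunit that favours pyruvate formation, had 11877, 11462 and 11339 units with Torin1, against 9741, 9901 and 10099 with insulin alone, a log2 fold change of 0.22. GAPDH, which oxidises glyceraldehyde phosphate and is a common reference gene in expression assays, had 7739, 7566 and 8287 units with Torin1, against 7021, 6230 and 6038 with insulin alone, a log2 fold change of 0.29. Both were called higher, in non-overlapping groups (limma adjusted p = 2.48e-07 for LDHB and 1.51e-06 for GAPDH). The log2 fold change of GAPDH lay between 0.25 and 0.48 and that of LDHB between 0.20 and 0.35 over the alternatives tried. PKM, the pyruvate kinase of most tissues, averaged 7044 ± 190 units with Torin1 and 8817 ± 151 with insulin alone (SD, n = 3 each; log2 fold change -0.32). ENO2, the neuronal enolase, averaged 257 ± 34.5 with Torin1 and 434 ± 37.8 with insulin alone (log2 fold change -0.76; adjusted p = 0.0616 for a change beyond 1.5-fold, which was called without insulin replicate 1 or Torin1 replicate 3). ENO1, the widespread enolase, differed by -0.08 with overlapping groups (adjusted p = 0.0200), and by 0.05 when libraries were scaled to equal totals. Its call was also lost without insulin replicate 1 (-0.06) or Torin1 replicate 1 (-0.07) or 2 (-0.06). RefSeq holds 65 pseudogenes named for GAPDH, 13 for PGAM1 and 6 for LDHA. How reads shared with such copies were counted is not given in the sources used here.

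**Figure D2:**
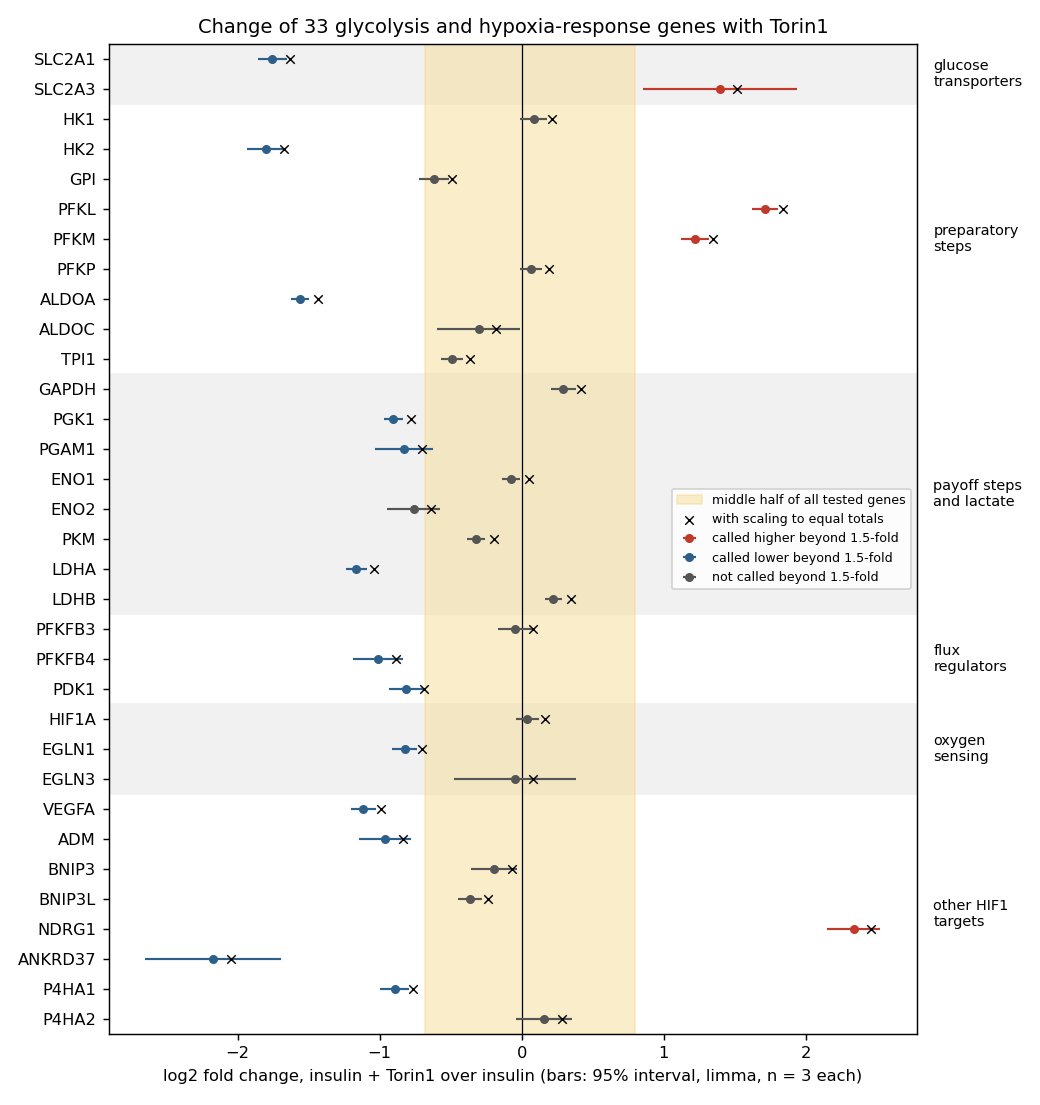
Log2 fold change, insulin+Torin1 over insulin, of each of the 33 genes (limma on log2(value + 1); bars are 95% intervals, n = 3 each), coloured by the call beyond 1.5-fold, with crosses for the value after scaling to equal totals and the shaded band covering the 25th to 75th percentile of all 13842 tested genes, -0.68 to 0.80. ANKRD37 at -2.17, HK2 at -1.80 and SLC2A1 at -1.75 lie farthest left, and NDRG1 at 2.33 and PFKL at 1.71 farthest right.

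Setting related genes against each other within a library removes the scaling between libraries. Of 11 pairs, all 11 had ratios in the Torin1 libraries that lay wholly to 1 side of those in the insulin libraries. The groups also did not overlap for 86.3% of single genes, so little is read from this count. An exact two-sided permutation test of 3 against 3 libraries cannot go below p = 0.1, and every pair had p = 0.1, also after adjustment over the 11 pairs. The ratio of HK2 to HK1 was 0.363, 0.323 and 0.392 with Torin1, against 1.32, 1.38 and 1.26 with insulin alone, a difference of -1.88 on the log2(value + 1) scale. The ratio of LDHA to LDHB was 0.315, 0.301 and 0.316 with Torin1, against 0.806, 0.800 and 0.828 with insulin alone, a difference of -1.38. Both pairs thus held less of the inducible or lactate-forming gene relative to its partner. The ratio of PFKP to PFKL was 0.795, 0.748 and 0.775 with Torin1, against 2.51, 2.44 and 2.30 with insulin alone, a difference of -1.64. The ratio of SLC2A3 to SLC2A1 was 0.0650, 0.0655 and 0.0669 with Torin1, against 0.00479, 0.00756 and 0.00982 with insulin alone, a difference of 3.15. The insulin ratios of that pair spread the most, and SLC2A3 rests on few reads there. The ratio of ALDOC to ALDOA was higher with Torin1 by 1.26, that of P4HA2 to P4HA1 by 1.05 and that of EGLN3 to EGLN1 by 0.78. Lower ratios were those of PFKP to PFKM by -1.16, PFKFB4 to PFKFB3 by -0.97 and ENO2 to ENO1 by -0.68, and the smallest difference was 0.17 for BNIP3 to BNIP3L. A ratio shows that a pair changed unequally, and is not a ratio of molecules, since transcript lengths were not used.

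**Figure D3:**
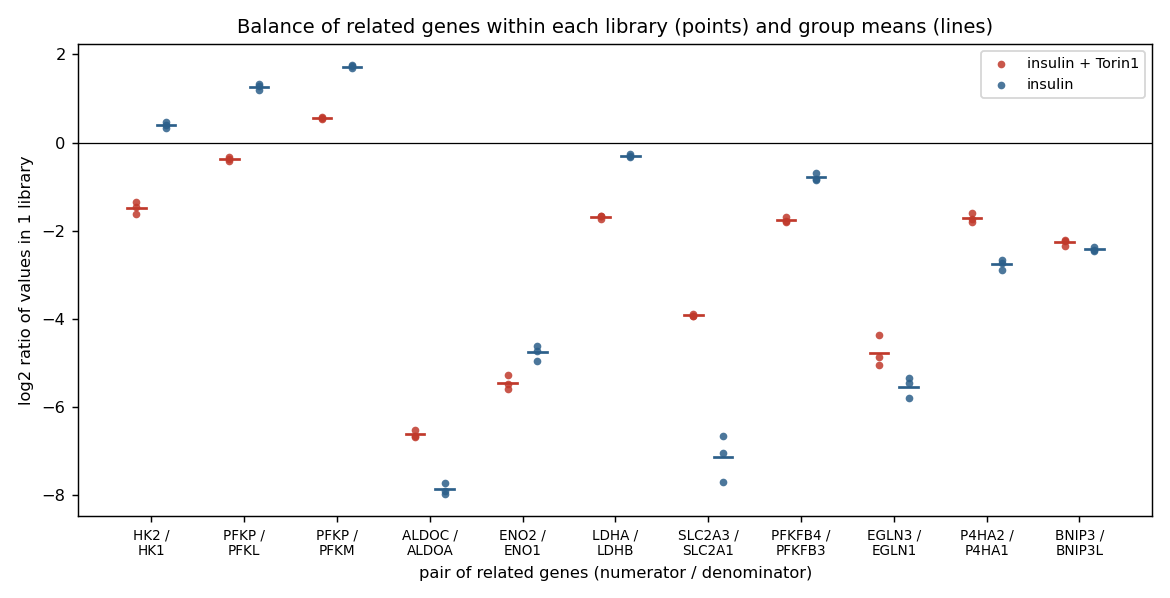
Log2 ratio of the values of 2 related genes within each library for 11 pairs, with insulin+Torin1 to the left of insulin, points for the 3 libraries of a group and lines for group means. No pair overlaps between groups. The pair SLC2A3 to SLC2A1 has the largest separation, 3.15, and BNIP3 to BNIP3L the smallest, 0.17.

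Of the 3 regulators of flux, 2 fell, beside 42.5% of all tested genes. PFKFB4, a bifunctional enzyme that makes and breaks the allosteric activator of phosphofructokinase, had 155, 151 and 164 units with Torin1, against 320, 313 and 318 with insulin alone. PDK1, the kinase that shuts pyruvate out of the citric acid cycle, had 420, 402 and 409 units with Torin1, against 681, 746 and 741 with insulin alone. The groups were far apart in both, with log2 fold changes of -1.01 for PFKFB4 and -0.81 for PDK1 (limma adjusted p = 1.13e-10 and 6.55e-12), each called beyond 1.5-fold. PFKFB3, the related enzyme with the stronger kinase activity, had 541, 517 and 533 units with Torin1 and 574, 553 and 516 with insulin alone, and its difference of -0.05 was not called (adjusted p = 0.475).

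HIF1A (chr14:61695513-61748258, plus strand) had 1752, 1815 and 1677 units with Torin1 and 1717, 1703 and 1679 with insulin alone. The values overlapped and the difference of 0.04 was not called (adjusted p = 0.349), with a 95% interval of -0.04 to 0.12. Scaling to equal totals or quantile normalization gave a call upward, and the range over the alternatives tried was 0.01 to 0.31. The mRNA says nothing of the HIF1A protein, which was not measured here. EGLN1 (chr1:231363756-231422287, minus strand), the main prolyl hydroxylase that marks the HIF alpha subunits for destruction and itself a HIF1 target, had 1123, 1112 and 1098 units with Torin1, against 1950, 2076 and 1884 with insulin alone. No insulin library came near the Torin1 range, and the log2 fold change was -0.82 (limma adjusted p = 1.26e-14). EGLN3, a related hydroxylase, had 54, 38 and 33 units with Torin1 and 44, 37 and 46 with insulin alone, with no call (adjusted p = 0.837).

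Among the other 8 HIF1 targets, 6 fell and 1 rose, beside 42.5% and 43.4% of all tested genes. ANKRD37 (chr4:185396841-185400723, plus strand), an ankyrin repeat gene induced by hypoxia, had 30, 19 and 14 units with Torin1, against 114, 88 and 82 with insulin alone. The highest Torin1 value was well under the lowest insulin value, and its log2 fold change of -2.17 ± 0.23 (SE; limma adjusted p = 7.48e-09) was the largest fall among the members. Its Torin1 values in replicates 2 and 3 stood for about 18 and 10 reads, and its insulin values for about 67, 64 and 78. Its body overlaps LRP2BP and UFSP2. VEGFA (chr6:43770211-43786487), the angiogenic growth factor, had 850, 870 and 865 units with Torin1, against 1907, 1801 and 1898 with insulin alone. ADM, a vasodilator peptide, had 179, 166 and 152 units with Torin1, against 324, 306 and 340 with insulin alone. P4HA1, a catalytic subunit of collagen prolyl hydroxylase, had 622, 594 and 657 units with Torin1, against 1146, 1165 and 1166 with insulin alone. Like ANKRD37, these 3 genes were called lower beyond 1.5-fold, with log2 fold changes of -1.12 for VEGFA, -0.96 for ADM and -0.89 for P4HA1.

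NDRG1, a gene of growth arrest and stress that HIF1 is known to induce, moved the other way. It had 780, 756 and 780 units with Torin1, against 170, 125 and 166 with insulin alone. The groups lay far apart, and its log2 fold change of 2.33 ± 0.091 (SE; limma adjusted p = 7.10e-17) was the largest rise among the members. The mitophagy receptor genes BNIP3 and BNIP3L had smaller falls. BNIP3L averaged 1322 ± 38.8 units with Torin1 and 1701 ± 38.5 with insulin alone (SD, n = 3 each; log2 fold change -0.36; adjusted p = 1.60e-08). BNIP3 had 257, 276 and 295 units with Torin1 and 301, 313 and 335 with insulin alone, a log2 fold change of -0.20 (adjusted p = 0.0246). That call was lost without insulin replicate 3 or Torin1 replicate 1 or 2, and the value was -0.07 once libraries were scaled to equal totals. P4HA2 had 188, 196 and 188 units with Torin1 and 181, 175 and 158 with insulin alone, a difference of 0.16 that was not called (adjusted p = 0.133). With scaling to equal totals it was called higher (0.28), and with quantile normalization it was -0.17 and not called.

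Beyond the 33 genes, other genes of the same pathways were counted from lists. Of 13 tested other enzymes and isoforms of glycolysis, 7 fell and 5 rose, and the median was -0.41 on the log2 scale. Of all tested genes 42.5% fell and 43.4% rose, so the share called is near that of all genes. LDHD, the dehydrogenase of D-lactate, had 35, 29 and 43 units with Torin1, against 2, 0 and 2 with insulin alone. It passed the filter through the Torin1 libraries only, so no fold is given. Of 8 tested other glucose transporters and the arrestins that remove transporters from the surface, 6 fell and 2 rose. ARRDC4, such an arrestin, averaged 1037 units with Torin1 and 5950.0 with insulin alone (log2 fold change -2.52). The transporter gene SLC2A6 changed by -1.39 and SLC2A12 by 1.59 on the log2 scale. The list lies at a median of -1.19, beside 0.02 for all tested genes.

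Of 14 tested genes of pyruvate entry into mitochondria, 8 fell and 4 rose, where 42.5% of all tested genes fell and 43.4% rose, so the share called is near that of all genes. PDP1 and PDP2, the phosphatases that reactivate pyruvate dehydrogenase against kinases such as PDK1, averaged 348 and 389 units with Torin1, against 866 and 1739 with insulin alone. PDPR, their regulatory subunit, changed by -1.10. Of 6 lactate transport genes, 4 fell and 1 rose, beside the same shares of all tested genes. SLC16A3, the lactate exporter MCT4 and a known HIF1 target, had 18, 24 and 17 units with Torin1, against 182, 182 and 165 with insulin alone (log2 fold change -3.11; limma adjusted p = 3.99e-14). SLC16A1, the transporter MCT1, had 4376, 4359 and 4353 units with Torin1, against 8786, 8821 and 8675 with insulin alone (log2 fold change -1.01). EMB and BSG, which encode chaperones of transporters of this family, moved in opposite directions. EMB rose to 1058 ± 36.5 units with Torin1, against 320.3 ± 59.2 with insulin alone (SD, n = 3 each). BSG fell to 3605 ± 47.4 units with Torin1, against 6061 ± 283 with insulin alone (log2 fold change -0.75). Of the gluconeogenesis genes only 2 passed the filter, and both were called higher, at a median of 0.47 on the log2 scale. Among all tested genes 43.4% were called higher.

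Of 13 tested HIF subunits and regulators, 7 fell and 5 rose, shares near those of all tested genes (42.5% and 43.4%). VHL, the subunit that recognises hydroxylated HIF alpha, averaged 2186 ± 86.5 units with Torin1 and 4950.3 ± 159 with insulin alone (SD, n = 3 each; log2 fold change -1.18). TCEB2, which encodes the elongin that joins VHL in its ubiquitin ligase, changed by 1.32. CITED2, which competes with HIF1 for its coactivator, had 1124 units in each of the 3 Torin1 libraries, against 383, 404 and 388 with insulin alone (log2 fold change 1.52). Of 37 tested HIF1 targets outside the 33 genes, 20 fell and 9 rose, beside those same shares of all tested genes. Their median was -0.25, beside 0.02 for all tested genes. HMOX1, the heme oxygenase, averaged 46.0 units with Torin1 and 496 with insulin alone (log2 fold change -3.42). DDIT4, an inhibitor of mTOR complex 1, averaged 50.7 units with Torin1 and 428 with insulin alone (-3.07). CA12, a membrane carbonic anhydrase, had 108, 123 and 110 units with Torin1 and 9, 18 and 18 with insulin alone. It met the filter only through the Torin1 libraries, so no fold is given. HMOX1 and DDIT4 are also targets of other stress pathways.

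The m6A data are 1 list of sites per condition, in which each position stands once, under 1 replicate, so the lists allow no test. On the members' strands and inside their gene bodies lay 150 of the 63578 sites with Torin1 and 212 of the 96671 sites with insulin alone, in 28 and 27 of the 33 genes. Of the Torin1 sites 132, 6 and 12 were listed under replicates 1, 2 and 3, and of the insulin sites 131, 72 and 9. The excess with insulin alone therefore lay in sites listed under replicate 2, and under replicate 1 the numbers were 132 and 131. The whole lists also held most of their excess there, with 1552 Torin1 sites and 39670 insulin sites under replicate 2. Under replicate 1 they held 56298 and 50656, so the split is not particular to these genes. A single substituted read supported 76 of the Torin1 sites (50.7%) and 124 of the insulin sites (58.5%), beside 59.6% and 61.6% in the whole lists. Gene bodies span introns, and exon or transcript positions were not used here.

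VEGFA had the most sites over both lists together, 12 with Torin1 and 23 with insulin alone, of which 12 and 13 were listed under replicate 1. HK2 had 2 sites with Torin1, both under replicate 1, and 11 with insulin alone, 9 of them under replicate 1. PFKP had the most with Torin1, 19, and 10 with insulin alone, 17 and 7 under replicate 1. HK2 was called lower in expression and PFKP was not called. ALDOA had 11 sites with Torin1 and 19 with insulin alone, PKM 14 and 18, and GAPDH 10 and 12. LDHA had 4 sites with Torin1 and 9 with insulin alone, and LDHB had 9 and 6. ALDOC, ENO2 and ANKRD37 had no site in either list. Among 20 members with 5 or more replicate 1 sites over both lists, 5 had at least 1.5-fold fewer with Torin1, namely HK2, GPI, PGK1, PFKFB4 and EGLN1, and 4 had at least 1.5-fold more, namely HK1, PFKP, LDHB and HIF1A. HIF1A was exactly at that threshold, with 3 replicate 1 sites with Torin1 and 2 with insulin alone. Over all replicates it had 3 and 4, the other direction. Over all 4880 such genes, 26.1% had fewer and 39.3% more. The 13 members called lower beyond 1.5-fold held 48 replicate 1 sites with Torin1 and 70 with insulin alone. The 4 called higher held 7 and 5, and the other 16 held 77 and 56. Site numbers and expression did not go together in every gene: HK1 had 5 replicate 1 sites with Torin1 and 1 with insulin alone with no expression call, and NDRG1, which rose, had 1 and 1. The part of expression in the site numbers was not tested.

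**Figure D4:**
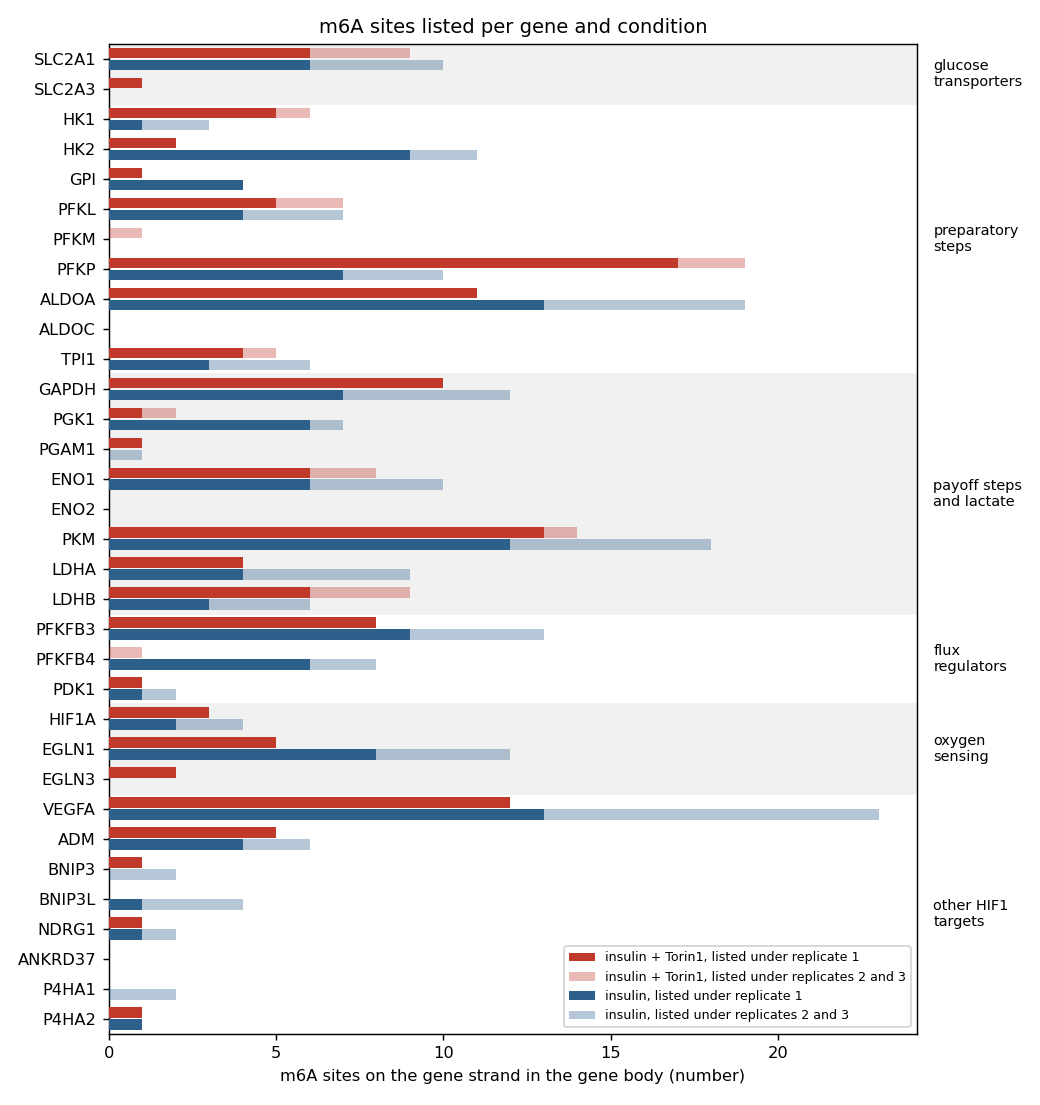
Number of m6A sites on the gene's strand in each of the 33 gene bodies, 1 row per gene, for the insulin+Torin1 list above the insulin list, with sites listed under replicate 1 shown apart from those listed under replicates 2 and 3. The insulin list holds more sites under replicates 2 and 3, 81 of 212, against 18 of 150 in the Torin1 list.

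Of the members' sites, 75 were in both lists, which is 50% of the Torin1 sites (Wilson 95% interval 42.1 to 57.9) and 35.4% of the insulin sites (29.3 to 42.0). Over the whole lists these shares were 43.1% and 28.3%. The sequence GGAC was at 54 Torin1 sites (36%, Wilson 95% interval 28.8 to 43.9) and 55 insulin sites (25.9%, 20.5 to 32.2). In the whole lists it was at 32.9% and 31.6%, inside these intervals. Among the members' sites listed under replicate 1 it was at 48 Torin1 sites (36.4%) and 41 insulin sites (31.3%). Within 2000 nucleotides of the annotated gene end lay 76 Torin1 sites (50.7%) and 100 insulin sites (47.2%), beside 33.5% and 32.4% over all genes. Gene length was not matched in that comparison.

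At the 50 member sites listed under replicate 1 in both lists, which lay in 17 genes, 142 of 4671 reads were substituted with Torin1 and 162 of 3154 with insulin alone. These were 3.04% (Wilson 95% interval 2.59 to 3.57) and 5.14% (4.42 to 5.96), and the intervals cover counting error only. The percentage was lower with Torin1 at 34 of the 50 sites, 68.0%, and the reads over the site were higher with Torin1 at 36, 72.0%. Over all 16264 such sites the percentages were 4.25% with Torin1 and 7.97% with insulin alone, with a lower value at 71.4% of sites and more reads at 77.0%. Those sites had 1302138 reads with Torin1 and 591587 with insulin alone. The reads over shared sites were 1442 with Torin1 and 564 with insulin alone in GAPDH, and 381 and 120 in LDHB. Among members called lower beyond 1.5-fold in expression, the ratio of reads, Torin1 over insulin alone, lay between 0.610 in HK2 and 1.57 in PGK1. In the other members with such sites it lay between 1.87 in PKM and 3.33 in PFKFB3. The part of expression in these reads was not tested. Among the members called lower, the reads were 798 with Torin1 and 1017 with insulin alone in ALDOA, 36 and 59 in HK2, 388 and 424 in VEGFA, and 277 and 282 in SLC2A1. They were 40 with Torin1 and 26 with insulin alone in LDHA, 33 and 21 in PGK1, 33 and 22 in EGLN1, and 22 and 18 in ADM.

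The single sites with the most substituted reads lay in 8 of the genes. At chr2:74891067 in HK2, an A in the sequence ggAct 2292 nucleotides before the gene end, 6 of 36 reads were substituted with Torin1 (16.7%, 7.87 to 31.9) and 18 of 59 with insulin alone (30.5%, 20.3 to 43.2). The 2 intervals overlap. At chr6:43785346 in VEGFA (ggAca) it was 2 of 71 reads with Torin1 (2.82%) and 10 of 86 with insulin alone (11.6%). At chr15:72199532 in PKM (ggAca) it was 4 of 129 reads with Torin1 (3.10%) and 9 of 88 with insulin alone (10.2%), and at chr1:8861207 in ENO1 (gaAct) 7 of 119 (5.88%) and 8 of 62 (12.9%). These sites were lower with Torin1 in the percentage of substituted reads, with intervals that overlap. At chr16:30068906 in ALDOA (gaAca) it was 9 of 97 reads with Torin1 (9.28%) and 11 of 139 with insulin alone (7.91%), and at chr12:6537617 in GAPDH (agAct) 8 of 330 (2.42%) and 3 of 152 (1.97%). PFKFB3 had 6 of 6 reads substituted with Torin1 and 6 of 7 with insulin alone at chr10:6233216 (agAcc), a count that was listed under replicate 2. These shares rest on the fewest reads of the 10 sites.

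**Figure D5:**
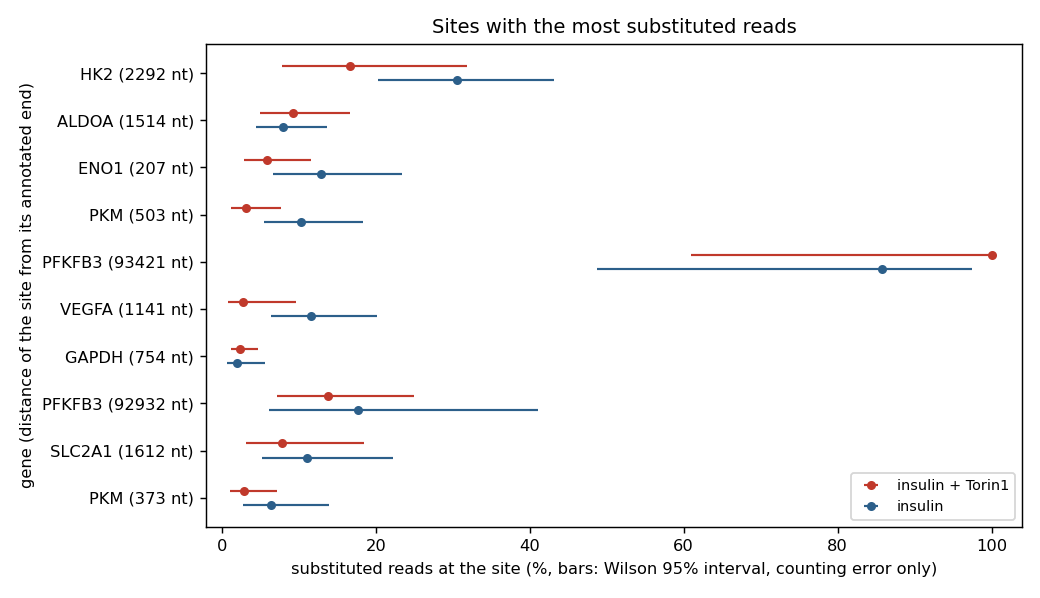
Percentage of substituted reads at the 10 member sites with the most substituted reads over both lists, insulin+Torin1 above insulin, with Wilson 95% intervals for counting error only and each site labelled with its gene and distance from the annotated gene end in nucleotides. Intervals overlap between conditions at every site, and the HK2 site is at 16.7% and 30.5%.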

How the data were processed

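HEK293E input RNA and miCLIP libraries, 3 per group, were grouped by the sample labels. The submitters' processing notes name DESeq2 1.22.2, DESeq, STAR, BWA 0.7.1 and the hg38 build, without their roles. The expression table that the authors deposited holds values normalized between libraries and rounded, as the grid of its low values shows, treated here as a score and not as reads. The value of each m6A site that the authors deposited is a fraction, substituted reads over all reads at the site, printed here as a percentage. The expression test was that of limma (version 3.58.1, R 4.3.3) with a variance trend, run on log2(value + 1), for 13842 genes with at least 10 units in at least 3 libraries, two-sided, with Benjamini-Hochberg adjustment over all of them and an adjusted p below 0.05 called. A second limma test asked for a change beyond 1.5-fold. The analysis was tested on simulated data.

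Sites were placed in RefSeq gene bodies (GRCh38.p14), with the strand from RefSeq promoters for 29 members and from most of the gene's own sites for 4, SLC2A3, VEGFA, BNIP3L and NDRG1. All 33 members were named, as were up to 3 genes per other list with the largest changes beyond 1.5-fold and the 10 member sites with most substituted reads. Some genes that this rule names are not reported here. The members and lists were chosen with earlier results of these data known. Alternatives were other pseudocounts, no filter, no variance trend, other scalings, a replicate block, each library left out, and stricter site thresholds.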

Additional observations from a re-analysis of the deposited data

How the results depend on the processing

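The 17 members called beyond 1.5-fold kept their direction and an adjusted p below 0.05 under all 13 alternatives to the expression test, and of 429 member values 398 kept theirs. The call beyond 1.5-fold itself was lost by PGAM1 and PDK1 with equal totals, by PGK1 and EGLN1 with quantile normalization, and by PGAM1 with no filter or no variance trend. Scaling to equal totals called 10 members higher in place of 6, and gave 0.0477 for ENO1, 0.0803 for PFKFB3 and 0.0759 for EGLN3; quantile normalization gave -0.17 for P4HA2. EGLN3 lay between -0.25 and 0.10 when a library was left out, with 0.01 without insulin replicate 3, 0.00 without Torin1 replicate 2 and 0.10 without Torin1 replicate 3. Same-numbered libraries did not deviate together (correlations of -0.02, 0.01 and -0.00), so numbers were not taken to pair samples. With the replicate number as a block, 20 members were lower, ALDOC being lost (adjusted p = 0.0643), and 6 were higher. With a library left out, 6 to 7 members were higher and 18 to 21 lower, and 4 and 12 to 14 beyond 1.5-fold. The site numbers rest on replicate 1: with its sites alone the insulin list held 131, and 37.9% of Torin1 sites were shared. With 3 or more substituted reads the lists held 34 with Torin1 and 39 with insulin alone, and 35.3% of the Torin1 sites were shared; with 10 or more reads the insulin list held 137. Leaving out the sites of each replicate gave 18 to 150 with Torin1, 81 to 212 with insulin alone, and shares of 14.7% to 50.7% and 3.77% to 40.0%. Depth limits SLC2A3, ANKRD37, EGLN3 and ALDOC, and the many sites with a single substituted read. The causes of these shifts were not tested.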
